A study of Mus musculus with 17 samples.

Results

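A set of 5 entries of the miRNA catalogue whose origin from miRNA precursors is in doubt, mmu-miR-6240, mmu-miR-6236, mmu-miR-6539, mmu-miR-2137 and mmu-miR-1983, were followed in small RNA libraries of mouse embryonic stem cells (ESCs) and their derivatives. They were chosen by name, as entries that may stem from ribosomal RNA, transfer RNA or repeats, and 5 of the 1033 rows of mature miRNAs in the table carry these names. The choice was made with results of these libraries known, and no measured value or contrast behind it is recorded. The tests below therefore describe these libraries and are not independent support for any pattern. All 5 entries passed the filter on low values, miR-6236 with 0 to 18 reads a library.

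The libraries came from 2 mouse ESC lines, B8 and D3. Day 0 samples were undifferentiated ESCs grown without feeder cells in medium with serum and LIF, the cytokine that keeps ESCs undifferentiated. Day 7 samples were embryoid bodies, aggregates of differentiating cells raised in hanging drops, and day 21 samples were the outgrowths these give in culture. Both were kept in medium that lacked LIF and held retinoic acid, N2 supplement and a mixture of insulin, transferrin and selenium. Values were available for 3 libraries of B8 day 0, 3 of B8 day 7, 3 of D3 day 0, 2 of D3 day 7 and 3 of D3 day 21, while the 3 labelled samples of B8 day 21 were not analysed here. The labels do not say whether replicates were separate cultures, so the p-values rest on the spread of these samples alone, and that spread may be technical. No genotype other than the line name is given.

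MicroRNAs (miRNAs) are short RNAs that guide Argonaute proteins to messenger RNAs, mainly through the seed, bases 2 to 8 of the mature strand. Most are cut from a hairpin in a longer transcript by Drosha with DGCR8 and then by Dicer, although mirtrons and a few capped hairpins skip the first cut. Pieces of ribosomal RNA, transfer RNA and small nucleolar RNA fall in the same size range, and when such a piece matches a catalogued sequence, its reads are counted as a miRNA. Transfer RNA transcripts run past the mature tRNA into a tail that ends in U bases. RNase Z removes this tail, which can remain as a small RNA of its own.

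RefSeq (GRCm38.p6) held mature sequences for 4 of the 5 entries, and these are shown because the sequence is what a read has to match to be counted. Seeds are in capitals, 5′ to 3′.
mmu-miR-6240: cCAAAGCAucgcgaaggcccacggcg
mmu-miR-6236: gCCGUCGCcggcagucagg
mmu-miR-2137: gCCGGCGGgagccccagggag
mmu-miR-1983: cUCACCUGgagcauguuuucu
No seed was shared among these 4. The seed of miR-6240 occurs in 1 other mature entry, mmu-miR-330-3p, and that of miR-1983 in 1 other, mmu-miR-412-3p. The sequences of miR-6240 and miR-6236 also mark the ends of the length range, with 26 and 19 bases. The 864 mature sequences with both a precursor and a row had a median of 22 and ran from 19 to 26. A sequence with several precursors is counted among them once for each. GC content was 69.2% for miR-6240, 78.9% for miR-6236 and 85.7% for miR-2137, against a median of 50% over the same 864. Of those, 95.8% had a lower GC content than miR-6240 and 99.5% a lower one than miR-2137. The GC content of miR-1983, 47.6%, was not extreme, since 41.3% of mature sequences lay below it.

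The precursor of miR-1983 overlaps a transfer RNA gene. Mir1983 lies at chr13:21896918-21897049 on the minus strand of GRCm38, and RefSeq places the isoleucine tRNA gene n-TItat14, of 94 bases, at 21896938 to 21897031 inside it. The precursor is given first with the tRNA gene and then with the mature miRNA in capitals.
Mir1983 with the tRNA gene in capitals: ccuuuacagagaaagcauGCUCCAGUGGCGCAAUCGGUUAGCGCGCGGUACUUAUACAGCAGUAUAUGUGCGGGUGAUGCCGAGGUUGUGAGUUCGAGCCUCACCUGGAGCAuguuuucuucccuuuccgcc
Mir1983 with the mature miRNA in capitals: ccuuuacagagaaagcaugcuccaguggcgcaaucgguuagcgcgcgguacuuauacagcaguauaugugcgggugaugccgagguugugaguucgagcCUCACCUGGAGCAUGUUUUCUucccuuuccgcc
mmu-miR-1983 with the bases inside the tRNA gene in capitals: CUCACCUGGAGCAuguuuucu
The mature sequence thus starts 13 bases before the 3′ end of the tRNA gene and runs 8 bases past it, into a stretch rich in U. It spans that end, where a tail removed by RNase Z would start after it. The first 7 bases of the tRNA gene pair with the 7 before its last base, the arrangement of an acceptor stem. Pairing in the predicted fold extended past the gene, as 95.2% of the mature bases were paired. The letters GUUCGANNC, a form of the internal promoter element (B box) of tRNA genes searched on both strands, occur in 5 of 1005 mouse precursors (0.498%), and Mir1983 holds them on its own strand. Mir1983 was 1 of 1005 precursors to overlap an annotated tRNA gene in RefSeq (0.0995%), while 4 overlapped a small nucleolar RNA gene and 0 an annotated rRNA gene.

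Annotation of the other 4 entries showed no overlap with an rRNA, tRNA or small nucleolar RNA gene, and repeats were not analysed here. Mir6240 (chr5:114851948-114852064, plus strand) lies outside any gene of the GENCODE annotation. Mir6236 (chr9:110281287-110281409, plus strand) overlaps the RefSeq lncRNA Gm39429. Mir6539 (chr14:67859636-67859745, minus strand) lies in an intron of Dock5, which encodes an exchange factor for Rac, and Mir2137 (chrX:72992079-72992144, plus strand) in an intron of Zfp185, both on the strand of the host. Of the 5, miR-1983 alone thus overlapped an annotated gene of those 3 classes. As background, the sequence following the A-rich start of Mir6240 resembles part of 28S ribosomal RNA. No rRNA sequence was compared here, and 0 of the 1005 precursors overlapped an annotated rRNA gene. Whether an entry matches rRNA therefore cannot be told from the lack of overlap. A search of 141767 annotated transcripts with up to 2 mismatches found miR-6240, miR-2137 and miR-1983 in their own precursors and in no other transcript, and miR-6236 also in Adamts14 and Ahnak.

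Predicted folding set miR-6240 apart from the other 2 precursors that could be folded. The precursor of miR-6240 had a predicted minimum free energy of -24.7 kcal/mol over 117 bases, or -21.1 kcal/mol per 100 bases, against a median of -40.7 over 991 mouse precursors. Of these, 1.21% folded less stably. In that fold 73.1% of the mature bases were paired. It is printed here with the mature miRNA in capitals, beside Mir2137.
Mir6240: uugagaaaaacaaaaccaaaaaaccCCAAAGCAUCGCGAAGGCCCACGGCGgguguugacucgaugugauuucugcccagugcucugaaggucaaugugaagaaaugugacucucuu
Mir2137: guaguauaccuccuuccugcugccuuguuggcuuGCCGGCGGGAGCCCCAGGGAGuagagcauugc
Mir2137, of 66 bases, reached -37.3 kcal/mol per 100 bases, with 35.1% of precursors less stable, and 81.0% of its mature bases were paired. Mir1983, fold energy -39.9 per 100 bases, lay near the middle, with 47.2% of precursors less stable and 95.2% of the mature bases paired.

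**Figure D1:**
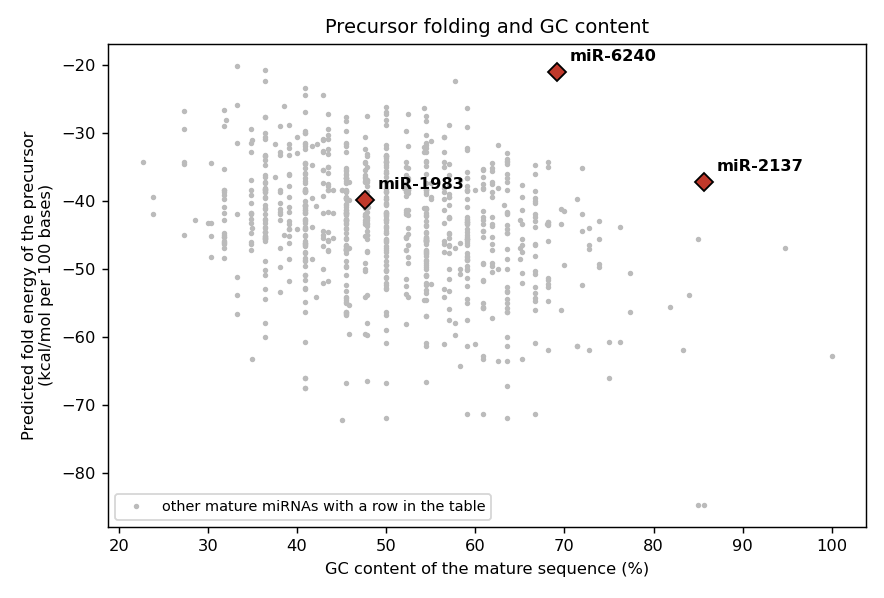
Predicted fold energy of the precursor in kcal/mol per 100 bases (vertical axis, higher is less stable) against the GC content of the mature sequence in percent (horizontal axis). Each mature miRNA with a row in the table has 1 point for each of its folded precursors, so some miRNAs occur more than once. The entries miR-6236 and miR-6539 have no point. The entry miR-6240 lies at 69.2% and -21.1, above the other points of high GC content, miR-2137 at 85.7% and -37.3, and miR-1983 at 47.6% and -39.9, inside the cloud.

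The values in the table are read numbers scaled by 1 factor a library, and column totals still differ 17.7-fold. Recovered miRNA reads numbered 138397 to 275271 in B8 day 0, 141823 to 256613 in B8 day 7, 56377 to 129486 in D3 day 0, 1008438 to 1060306 in D3 day 7 and 547213 to 743039 in D3 day 21. A value of 3 reads, taken as the floor, averaged 2.01, 2.72, 1.89, 2.25 and 1.02 in these groups, and allows for counting error alone, because PCR copies of a molecule are counted as separate reads. Changes are therefore given on 2 scales: as deposited, and on a relative scale on which each library was divided by its median-of-ratios factor, so that the typical miRNA is level. From D3 day 0 to day 7 the median over the 521 tested miRNAs was 2.25 on the log2 scale as deposited and 0.27 on the relative scale. Of the marker miRNAs, miR-295-3p, an ESC miRNA, held 11% and 9.22% of the column in B8 and D3 at day 0 and between 0.278% and 1.85% later, while miR-10a-5p, a Hox miRNA induced by retinoic acid, held 25.5% in B8 and 41.4% in D3 at day 7. The mesenchymal miR-143-3p was highest in D3 day 21, at 2.73% ± 0.42 (SD, n = 3), but higher in B8 day 0 (1.16%) than in B8 day 7 (0.193%). The ESC miRNA miR-302d-3p also departed from the labelled stages, at 0.147% in D3 day 21 against 0.0973% in D3 day 0.

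As a share of the column the 5 entries together were highest at day 0. Their summed share was 2760 ± 38.3 per 1000000 of the column in B8 day 0 and 5650 ± 541 in D3 day 0 (SD, n = 3 each). It was 908 ± 160 in B8 day 7 (n = 3), 404 ± 19.1 in D3 day 7 (n = 2) and 731 ± 121 in D3 day 21 (n = 3). By this share the day 0 libraries of both lines lay above all later ones, and the day 0 peak came from a different entry in each line: miR-6539 in B8 and miR-2137 in D3. With miR-10a and miR-10b left out of the totals the shares were 2770 ± 39.6 and 5660 ± 541 at day 0, 1630 ± 370 and 1170 ± 34.3 at day 7 (B8 and D3), and 841 ± 132 in D3 day 21, again highest at day 0 in each line. As deposited their sum was 387 ± 52.8 in B8 day 0 and 161 ± 50 in B8 day 7. In D3 it was 340 ± 86.6 at day 0 and 313 ± 16.2 at day 7, which overlap, and 162 ± 12.7 at day 21. In bulk RNA, fewer cells of a type and less RNA per cell cannot be told apart.

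**Figure D2:**
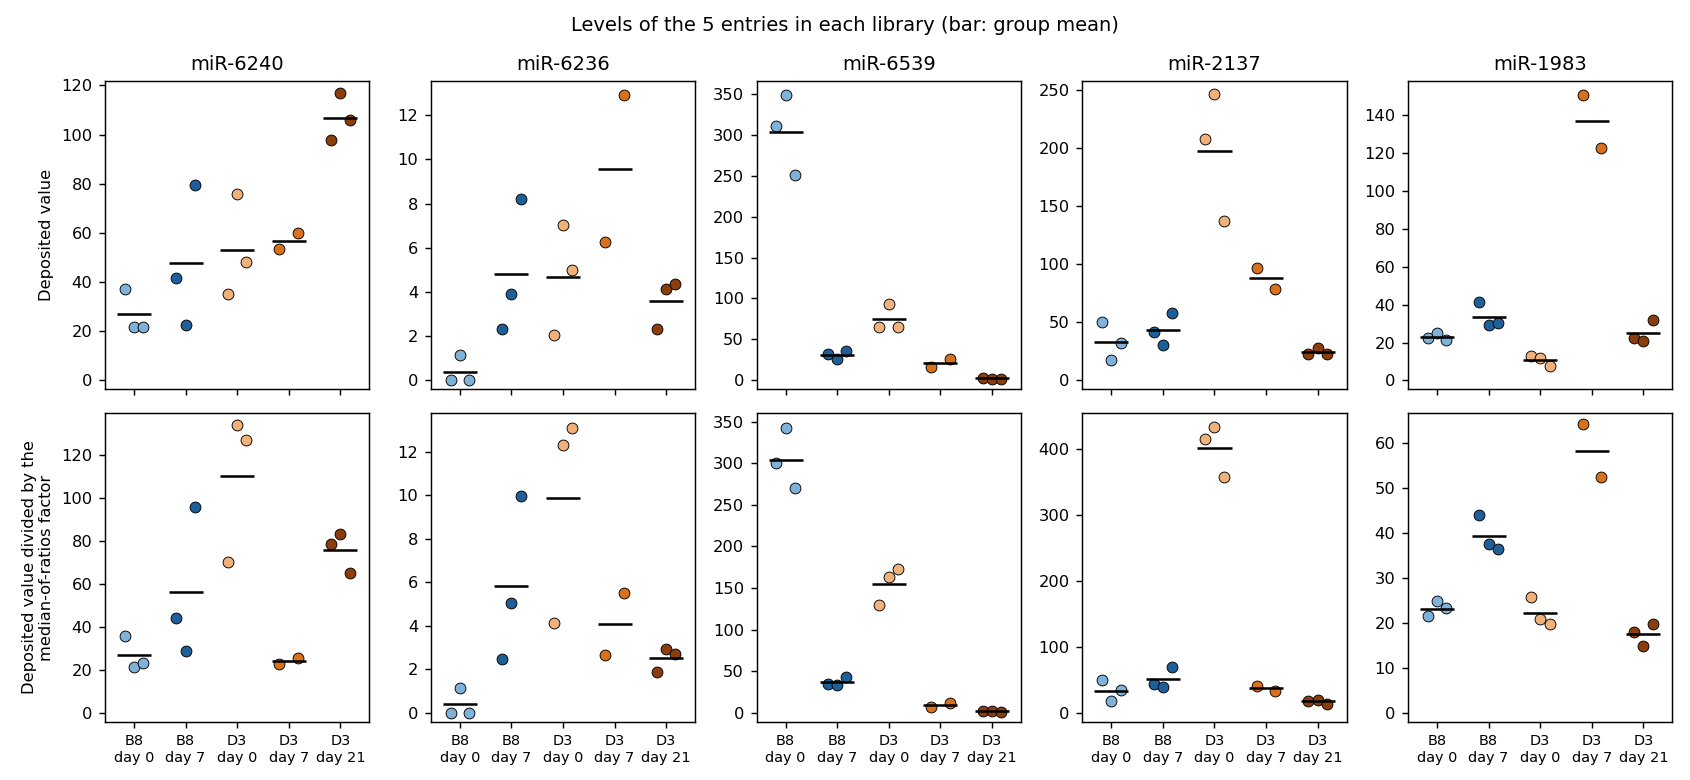
Level of each entry in each of the 14 libraries (points) with the group mean (bar), as deposited (top row) and divided by the library's median-of-ratios factor (bottom row), on linear axes. The highest group was B8 day 0 for miR-6539, D3 day 0 for miR-2137 and D3 day 7 for miR-1983 on both scales, while for miR-6240 it was D3 day 21 as deposited and D3 day 0 on the relative scale.

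The entry that overlaps a tRNA gene, mmu-miR-1983, was highest in D3 embryoid bodies as deposited and on the relative scale. As a share of the column, given below, its highest mean was in B8 day 7. Its deposited values were 22.3, 25.2 and 21.6 in B8 day 0, 41.5, 29.1 and 30.2 in B8 day 7, 12.9, 11.9 and 7.50 in D3 day 0, 151 and 123 in D3 day 7, and 22.2, 20.9 and 32.2 in D3 day 21. Both D3 day 7 libraries (193 and 172 reads) stood above all others, and the D3 day 0 libraries (9 to 25 reads) below all others. From day 0 to day 7 in D3, miR-1983 was 12.5-fold higher as deposited (log2 change 3.64 ± 0.33 SE, adjusted p = 5.1e-10, limma over 521 miRNAs) and 2.61-fold higher on the relative scale (1.38 ± 0.25, adjusted p = 0.00011), but level with equal column totals (-0.01).

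As a share of the column miR-1983 differed over those days by less than the spread of the libraries. It stood at 178 ± 24.3 per 1000000 in D3 day 0 (SD, n = 3) and 176 ± 8.10 in D3 day 7 (n = 2), with 165 ± 18.2 in B8 day 0, 194 ± 35.7 in B8 day 7 and 111 ± 13.7 in D3 day 21 (n = 3 each). It then fell from day 7 to day 21 in D3 by 2.44 on the log2 scale as deposited (limma adjusted p = 4.2e-06) and by 1.71 on the relative scale (adjusted p = 5.1e-05). With equal column totals this change was -0.67 (adjusted p = 0.057). The order on the relative scale was D3 day 7, B8 day 7, B8 day 0, D3 day 0, D3 day 21. Neighbours overlapped only among the last 3 groups.

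Reads of mmu-miR-6240 were present in every library, and its order of groups turned with the scale. Its deposited values were 37.3, 21.7 and 21.6 in B8 day 0, 41.5, 22.4 and 79.6 in B8 day 7, 35.2, 76.0 and 48.3 in D3 day 0, 53.3 and 60.1 in D3 day 7, and 97.6, 117 and 106 in D3 day 21, from 25 to 396 reads. The 3 D3 day 21 libraries lay above all others as deposited, and every other pair of neighbouring groups overlapped. After relative scaling D3 day 0 was highest, at 110 ± 34.8, and D3 day 7 lowest, at 24.1 ± 2.15 (SD, n = 3 and 2), with overlap between all neighbours in the order.

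In D3 outgrowths miR-6240 was 2.10-fold above day 0 as deposited (log2 change 1.07 ± 0.36 SE, limma adjusted p = 0.010), where relative scaling gave -0.49 ± 0.36 (adjusted p = 0.25). Without replicate 1 of D3 day 0 the deposited change was 0.81 (adjusted p = 0.068). Between D3 day 0 and day 7 the deposited values gave 0.16 ± 0.40 (adjusted p = 0.73) and the relative scale a fall of 2.12 ± 0.40 on the log2 scale (adjusted p = 0.00018). At day 0 miR-6240 was higher in D3 than in B8 on every scale run, by 0.95 ± 0.36 as deposited (adjusted p = 0.032) and 2.0 ± 0.36 on the relative scale (adjusted p = 0.00035). As deposited it fell short of the threshold without B8 day 0 replicate 2 (adjusted p = 0.13) or 3 (adjusted p = 0.11), or without D3 day 0 replicate 2 (adjusted p = 0.19) or 3 (adjusted p = 0.065).

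The entry mmu-miR-6236 was scarce. Its reads numbered 0, 2 and 0 in B8 day 0, 3, 7 and 6 in B8 day 7, 4, 13 and 6 in D3 day 0, 8 and 18 in D3 day 7, and 7, 14 and 11 in D3 day 21. B8 day 0, with 2 reads of 665923 in all, lay below every other group as deposited and on the relative scale. As a share of recovered reads it had the lowest mean but overlapped with D3 day 7. There B8 day 0 replicate 2 (2 reads of 252255) lay above D3 day 7 replicate 2 (8 reads of 1060306). As deposited, neighbours in the order of the other groups overlapped, while D3 day 7 (6.27 and 12.9) lay above D3 day 21 (2.32 to 4.37). On the relative scale D3 day 0 (4.13 to 13.1) lay above D3 day 21 (1.88 to 2.95). Set against recovered reads, its share in B8 day 7 (16 reads of 633885) was 8.40 times that in B8 day 0, with a 95% exact interval of 1.98 to 75.3, and its share in D3 day 0 (23 reads of 307289) 24.9 times, with an interval of 6.16 to 218. By the same measure its share in D3 day 0 was 5.96 times that in D3 day 7 (interval 3.25 to 10.9) and 4.68 times that in D3 day 21 (interval 2.62 to 8.25). These intervals cover counting error only and treat the libraries of a group as pooled. Both contrasts with B8 day 0 passed limma's test on the deposited values (adjusted p = 0.00033 and 0.00042) and also after relative scaling (adjusted p = 0.00057 and 0.00016), and the fitted size is not given because it depends on the pseudocount.

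Of the intronic entries, mmu-miR-6539, inside Dock5, had the widest range of the 5. Its deposited values were 311, 348 and 251 in B8 day 0, 32.1, 25.7 and 35.7 in B8 day 7, 64.7, 92.7 and 65.8 in D3 day 0, 16.4 and 26.5 in D3 day 7, and 2.99, 2.36 and 1.99 in D3 day 21. It ranked 58 to 65 among all rows of the B8 day 0 libraries (290 to 594 reads) and 391 to 467 in D3 day 21 (5 to 9 reads). Day 0 libraries were higher than later ones of the same line without overlap.

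From day 0 to day 7 miR-6539 fell 9.58-fold in B8 as deposited (log2 change -3.26 ± 0.29 SE, limma adjusted p = 1e-09) and 8.20-fold after relative scaling (adjusted p = 2.5e-08). In D3 the same interval gave a fall of 3.46-fold as deposited (adjusted p = 2.4e-05) and 16.5-fold on the relative scale (adjusted p = 1.3e-09). By day 21 in D3 it had fallen 25.5-fold against day 0 as deposited (-4.67 ± 0.29, adjusted p = 2.8e-13) and 70.1-fold on the relative scale (adjusted p = 8.3e-13). All 3 falls kept their sign and side of the threshold under the 12 other settings run and without any single library of the groups compared. At day 0 miR-6539 was lower in D3 than in B8, 4.07-fold as deposited (adjusted p = 3.6e-06) and 1.97-fold on the relative scale (adjusted p = 0.0077). With equal column totals that difference was -0.79 on the log2 scale (adjusted p = 0.056).

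Lines also differed in mmu-miR-2137, inside Zfp185, which was highest in D3 ESCs. Its deposited values were 50.6, 17.6 and 32 in B8 day 0, 41.5, 30.2 and 57.6 in B8 day 7, 208, 246 and 137 in D3 day 0, 97.1 and 78.7 in D3 day 7, and 22.9, 27.7 and 22.7 in D3 day 21. The D3 day 0 libraries (164 to 457 reads, rank 42 to 46) did not overlap with any other group on either scale. At day 0, miR-2137 was 6.18-fold higher in D3 than in B8 as deposited (log2 difference 2.63 ± 0.33 SE, limma adjusted p = 6.1e-07) and 12.8-fold after relative scaling (3.68 ± 0.31, adjusted p = 5.5e-08).

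With differentiation miR-2137 fell in D3 and did not pass the test in B8. In D3 the fall from day 0 was 2.18-fold at day 7 (log2 change -1.13 ± 0.37 SE, limma adjusted p = 0.0085) and 7.73-fold at day 21 (-2.95 ± 0.33, adjusted p = 2.2e-08) as deposited, and 10.7-fold and 22.7-fold on the relative scale (adjusted p = 1.8e-07 and 7.8e-10). Without replicate 3 of D3 day 7 the deposited change to day 7 was -0.97 (adjusted p = 0.079). In B8 the change from day 0 to day 7 was 0.44 ± 0.33 as deposited (adjusted p = 0.28, 95% interval -0.25 to 1.13) and 0.67 ± 0.31 on the relative scale (adjusted p = 0.084), or 0.99 there without replicate 1 of B8 day 0 (adjusted p = 0.016). The lines' changes differed by -1.57 ± 0.50 as deposited (adjusted p = 0.0073) and by -4.08 ± 0.47 on the relative scale (adjusted p = 2e-06).

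**Figure D3:**
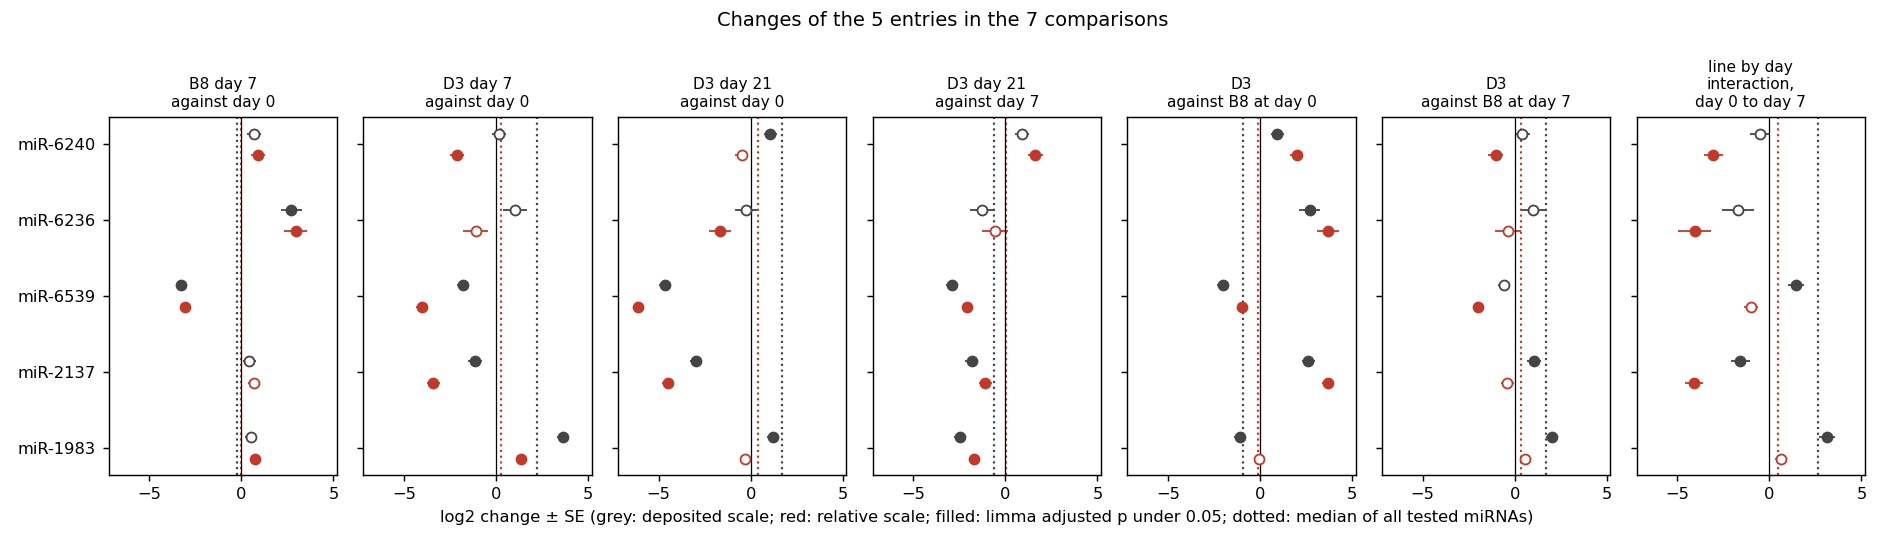
Log2 change with its standard error for each entry in the 7 comparisons, as deposited (grey) and on the relative scale (red), with filled points for a limma adjusted p under 0.05 and dotted lines at the median of the 521 tested miRNAs. The entry miR-6539 lies left of 0 in every panel on the relative scale, and the 2 scales part for miR-6240 in D3 day 7 against day 0 (0.16 and -2.12).

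Read against all miRNAs, the count of entries past the threshold was as follows. From day 0 to day 7 in B8, 1 entry rose (miR-6236) and 1 fell (miR-6539) as deposited, where 21.9% of tested miRNAs rose and 28.0% fell. Without replicate 2 of B8 day 7, miR-6240 also rose as deposited (1.13, limma adjusted p = 0.0095). On the relative scale 3 rose and 1 fell, where 26.9% rose and 25.9% fell, and the added calls were miR-6240 (0.91, limma adjusted p = 0.041) and miR-1983 (0.75, adjusted p = 0.0091). The relative call of miR-6240 was lost without B8 day 0 replicate 2 (adjusted p = 0.15) or 3 (adjusted p = 0.12), or without B8 day 7 replicate 1 (adjusted p = 0.055) or 3 (adjusted p = 0.21).

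Over the same days in D3, 1 entry rose (miR-1983) and 2 fell (miR-6539 and miR-2137) as deposited, where 70.4% of miRNAs rose and 6.91% fell. With 36.1% up and 27.1% down on the relative scale, 1 rose and 3 fell. The median of the 5 entries was 0.16 as deposited, beside 2.25 for all tested miRNAs, and -2.12 on the relative scale, beside 0.27. From day 0 to day 21, 2 rose (miR-6240 and miR-1983) and 2 fell (miR-6539 and miR-2137) as deposited, where 65.3% rose and 10.2% fell. With 38.2% up and 25.5% down on the relative scale, 0 rose and 3 fell, the added fall being miR-6236 (-1.66, adjusted p = 0.024), while miR-1983 turned to -0.32 (adjusted p = 0.22). That call was lost without D3 day 0 replicate 2 (adjusted p = 0.085) or 3 (adjusted p = 0.076), or without D3 day 21 replicate 1 (adjusted p = 0.078).

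Between day 7 and day 21 in D3, 0 rose and 3 fell (miR-6539, miR-2137 and miR-1983) as deposited, where 8.06% of miRNAs rose and 31.5% fell. The same 3 fell on the relative scale, and miR-6240 rose there (1.63, limma adjusted p = 0.0058), with 16.5% up and 10.6% down. The relative call of miR-6240 was lost without D3 day 7 replicate 2 (adjusted p = 0.061), as was that of miR-2137 (adjusted p = 0.19), which was also lost without D3 day 7 replicate 3 or D3 day 21 replicate 1 or 3 (adjusted p = 0.077, 0.051 and 0.11). The fall of miR-6539 was 7.37-fold as deposited and 4.26-fold on the relative scale, while with equal column totals miR-2137 changed by -0.06 (adjusted p = 0.93).

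All 5 entries differed between the lines at day 0 as deposited, 3 higher in D3 (miR-6240, miR-6236 and miR-2137) and 2 lower (miR-6539 and miR-1983), where 0.96% of tested miRNAs were higher and 46.1% lower. On the relative scale the same 3 were higher and miR-6539 lower, with 7.68% higher and 15.9% lower among all miRNAs. The difference of miR-1983 there was -0.08 ± 0.22 (95% interval -0.54 to 0.39), and with equal column totals it turned to 0.11. The median of the 5 was 0.95 as deposited, beside -0.90 over all tested miRNAs, and 2.0 on the relative scale, beside -0.11.

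At day 7 no entry passed on both scales. As deposited miR-1983 and miR-2137 were higher in D3 by 2.02 and 1.06 on the log2 scale (limma adjusted p = 1.1e-05 and 0.013), where 66.0% of miRNAs were higher and 9.21% lower, and with equal column totals both signs turned (-0.12 and -1.08). The call of miR-2137 was lost without B8 day 7 replicate 2 (adjusted p = 0.064) or D3 day 7 replicate 2 (adjusted p = 0.10). On the relative scale miR-6539 and miR-6240 were lower in D3 (-1.98 and -1.03, adjusted p = 2.6e-05 and 0.048), where 24.8% were higher and 16.7% lower. For miR-6240 that call was lost without B8 day 7 replicate 1 or 3 or D3 day 7 replicate 2 or 3 (adjusted p = 0.060, 0.20, 0.21 and 0.12), and its deposited difference was 0.42 (adjusted p = 0.35), or 0.88 without replicate 3 (adjusted p = 0.040) and -0.02 without replicate 2 of B8 day 7.

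The change from day 0 to day 7 differed between the lines for 3 entries as deposited. The difference, D3 change minus B8 change, was positive for miR-1983 (3.12, beside a median of 2.64 over all tested miRNAs). It was also positive for miR-6539 (1.47), which fell in both lines, and negative for miR-2137. Of all tested miRNAs, 71.8% passed with a positive difference and 2.50% with a negative one. On the relative scale the difference was negative for miR-2137, miR-6240 and miR-6236, with 20.7% positive and 12.5% negative among all tested miRNAs. For miR-1983 it was 0.64 on the relative scale (adjusted p = 0.16) and -0.23 with equal column totals. The difference for miR-6539 turned to -1.01 on the relative scale (limma adjusted p = 0.051), and as deposited it was 1.14 (adjusted p = 0.051) without replicate 3 of D3 day 7. The relative value passed the threshold without B8 day 7 replicate 2, D3 day 0 replicate 1 or D3 day 7 replicate 3 (adjusted p = 0.046, 0.038 and 0.024). For miR-6236 the deposited value of -1.71 (adjusted p = 0.078) passed without B8 day 0 replicate 2, B8 day 7 replicate 1 or D3 day 0 replicate 1 (adjusted p = 0.019, 0.040 and 0.035). Its size, too, depends on the pseudocount. Comparisons that share a group are not independent: 3 of the 7 use D3 day 7 against another group, and the interaction uses all 4 groups of days 0 and 7.

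Ratios of reads within a library do not depend on the scale, since every factor cancels. Per read of miR-6240, miR-6539 had 8.33, 11.6 and 16.1 reads in the B8 day 0 libraries (lowest, median and highest) and 0.448, 0.774 and 1.15 in B8 day 7. In D3 it had 1.22 to 1.84 at day 0, 0.309 and 0.440 at day 7 and 0.0187 to 0.0306 at day 21. The ratio was lower at each later day of a line without overlap. For miR-2137 per read of miR-6240, D3 gave 2.83 to 5.91 at day 0, 1.31 and 1.82 at day 7 and 0.213 to 0.237 at day 21, again without overlap, while B8 gave 0.811 to 1.48 at day 0 and 0.724 to 1.35 at day 7, which overlap. For miR-1983 per read of miR-6240 the D3 values were 0.155 to 0.368 at day 0, 2.05 and 2.84 at day 7 and 0.179 to 0.303 at day 21. So the entries moved unequally within the same libraries, with miR-1983 highest against miR-6240 at D3 day 7.

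**Figure D4:**
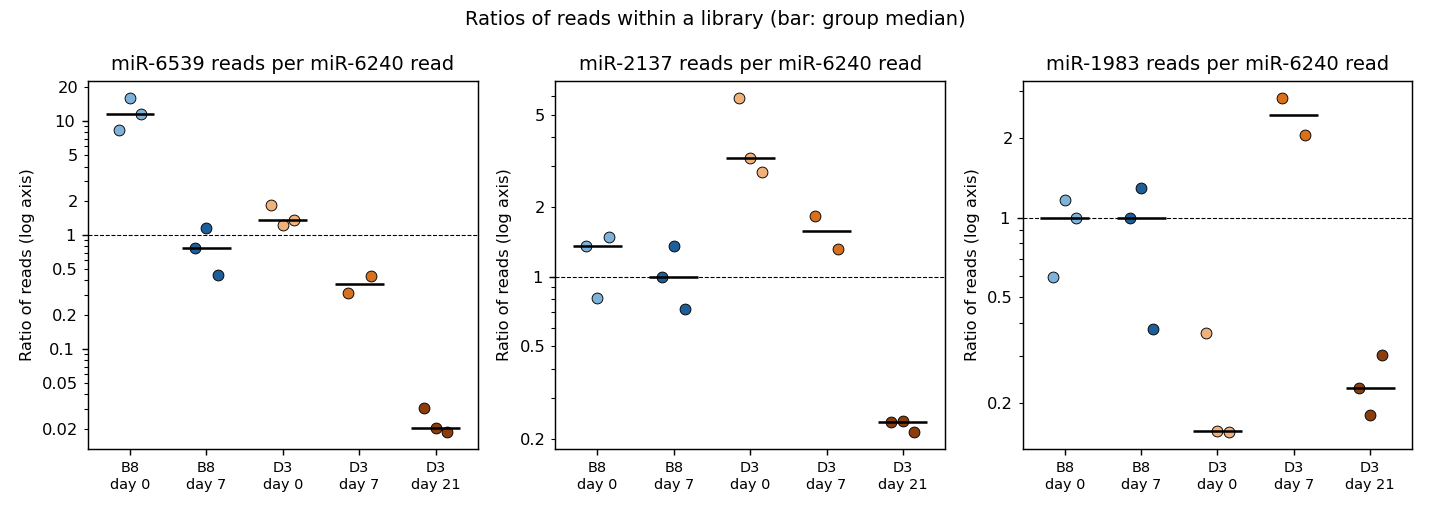
Reads of miR-6539, miR-2137 and miR-1983 per read of miR-6240 in each library (points, log axis) with the group median (bar) and a dashed line at equal reads. The ratio of miR-6539 runs from 8.33 to 16.1 in B8 day 0 down to 0.0187 to 0.0306 in D3 day 21, that of miR-2137 is highest in D3 day 0 and that of miR-1983 in D3 day 7.

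The 5 entries did not share a pattern across libraries. Pearson correlations of log2 relative values over the 14 libraries, which fall into 5 groups and so are not independent points, ran from -0.54 (miR-6240 with miR-1983) to 0.61 (miR-6240 with miR-6236). The entry most like any of them was miR-92a-3p for miR-6539, with r = 0.99, followed by miR-92a-1-5p (0.98) and miR-295-5p (0.97). The group means of miR-92a-3p on the relative scale were 3060, 1260, 2570, 875 and 452 in B8 day 0, B8 day 7, D3 day 0, D3 day 7 and D3 day 21, a 6.78-fold span against one of 172-fold for miR-6539 (304, 36.8, 155, 9.14 and 1.77). For miR-1983 the closest were miR-3078-5p (0.94), miR-99b-3p (0.84) and miR-130b-3p (0.82), for miR-2137 miR-410-5p (0.86), miR-150-3p (0.84) and miR-1949 (0.80). For miR-6240 no tested miRNA exceeded miR-465b-3p (0.62), then miR-6236 (0.61) and miR-297b-5p (0.60), and for miR-6236 the closest were miR-382-5p (0.71), miR-370-3p and miR-184-3p (0.62 each).

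Other catalogue entries with a like background were rare in the table. Of 18 names discussed as rRNA-like, miR-6236 aside, 3 had a row, and miR-3968 and miR-6239 passed the filter with 1 to 11 and 2 to 11 reads a library. As deposited miR-3968 rose from 1.36 ± 1.02 in D3 day 0 to 6.32 ± 1.18 in D3 day 7 (SD, n = 3 and 2, limma adjusted p = 0.0080), where relative scaling gave a change of 0.10 (adjusted p = 0.93). The entry miR-6239 passed the test in none of the 7 comparisons as deposited and fell in D3 from day 0 to day 21 on the relative scale (-1.17, limma adjusted p = 0.050 as rounded). None of 8 other tRNA-like names had a row.

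A list of 6 names linked to small nucleolar RNA or scaRNA genes had 7 rows, of which 4 passed the filter. The link is not borne out by annotation for miR-1306, whose precursor overlaps Dgcr8 alone. From day 0 to day 7 in D3 all 4 rose as deposited, where 70.4% of tested miRNAs rose, and 3 on the relative scale, where 36.1% did, with 0 falls on either scale. Those 3 were miR-1306-5p and both arms of miR-1839, which share a precursor. The relative change of miR-1291 was 0.28 (limma adjusted p = 0.8). In B8, 1 rose (miR-1839-5p) and 1 fell (miR-1839-3p) on both scales. There 21.9% of tested miRNAs rose and 28% fell as deposited, and 26.9% rose and 25.9% fell on the relative scale. The most abundant, miR-1839-5p, whose precursor overlaps a scaRNA gene, had group means of 17.3 ± 6.41, 47.7 ± 14.9, 8.16 ± 4.61, 130 ± 5.47 and 95.6 ± 22.7 (SD) in the order B8 day 0, B8 day 7, D3 day 0, D3 day 7 and D3 day 21. It rose in D3 to day 7 by 4.04 as deposited and 1.80 on the relative scale (limma adjusted p = 1.4e-09 and 0.00035), and in B8 by 1.46 and 1.69 (adjusted p = 0.0011 and 0.00029). Its other arm, miR-1839-3p (at most 15 reads a library), was at 0 in all 3 D3 day 0 libraries, the shallowest, and at 5.14 ± 2.85 in D3 day 7. In B8 this arm fell from day 0 to day 7 by 1.47 as deposited and 1.39 on the relative scale (limma adjusted p = 0.027 and 0.035). Called in at least 3 comparisons as deposited were also miR-1306-5p and miR-1291, which overlaps Snora34.

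Of miRNAs made without Drosha and DGCR8, 9 of 14 rows passed the filter. As deposited 4 of 9 rose in B8 from day 0 to day 7, 7 in D3 to day 7 and 7 in D3 to day 21, against 4, 4 and 3 on the relative scale, and 0 fell in these comparisons on either scale. Over all tested miRNAs 21.9%, 70.4% and 65.3% rose as deposited and 26.9%, 36.1% and 38.2% on the relative scale. In the same order 28%, 6.91% and 10.2% fell as deposited and 25.9%, 27.1% and 25.5% on the relative scale. The most abundant, miR-320-3p, from a capped hairpin, averaged 361 ± 52.0, 988 ± 329, 242 ± 70.7, 1070 ± 118 and 946 ± 74.0 in the same order of groups. It rose in B8 by 1.4 as deposited and 1.63 on the relative scale (limma adjusted p = 6.9e-05 and 5.5e-06), and in D3 to day 7 by 2.18 as deposited, where the relative scale gave -0.12 (adjusted p = 0.70). The short-hairpin miR-484 averaged 165 ± 8.78, 118 ± 37.8, 112 ± 13.9, 490 ± 55.5 and 250 ± 10.3. In D3 to day 7 it rose by 2.12 as deposited, beside a median of 2.25 over all tested miRNAs. The relative scale gave -0.17 (limma adjusted p = 0.5). To day 21 its change was 1.16 as deposited and -0.41 on the relative scale (adjusted p = 0.062). The mirtrons miR-1981-5p, miR-3102-3p, miR-877-5p and miR-702-5p were each called in at least 3 comparisons as deposited, with at most 54 reads in any library. Of these, miR-877-5p and miR-702-5p, with at most 12 and 8 reads, were at 0 in all D3 day 0 libraries. Those libraries were the shallowest, with 56377 to 129486 reads, and miR-702-5p was at 0 in all B8 day 0 libraries too.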

How the data were processed

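The authors deposited a single table of 1033 mature miRNAs whose values are signal, made by dividing whole reads by 1 factor a library. TMM is named by the table's title, the tools CASAVA, FastQC, Bowtie and Partek and the genome build mm10 by the submitters' processing notes, without versions. How reads matching several places were counted is not given in the sources used here. Low values (1000 reads or fewer) were 100% whole multiples of the smallest step of their column, within 0.01 of a read, and so whole reads were recovered. A single column that maps to no sample was not used.

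The 5 entries and the 4 lists of other entries were chosen with earlier results of these data known. A filter on the mean (5 or more per 1000000 of the column) left 521 miRNAs, which were fitted with limma 3.58.1 in R 4.3.3 (trended prior, 5 group means, 9 residual degrees of freedom) on log2 of the value plus 0.48, which understates changes of low values. Tests were 2-sided, with Benjamini-Hochberg adjustment over all 521 at 0.05. The limma step was also run on simulated counts. These gave each miRNA a common mean in all libraries, apart from rows changed by design, and had no shift of the whole table. The error rates under the shifts in these data were therefore not tested. Relative values use median-of-ratios factors (0.381 to 2.36) over the 319 miRNAs above 0 in every library. The test on counts, edgeR 4.0.16 on recovered reads, was an alternative and called 2 to 5 of the 5 entries in a comparison. The share of all miRNAs it called is not given here. The other alternatives changed the pseudocount, filter, scaling, prior, samples fitted and replicate block, or left out each library in turn. Named were all 5 entries, the 3 miRNAs most correlated with each, and from each list the 2 most abundant and any called in 3 or more comparisons. Replicates differed by more than sampling noise (chi-square per degree of freedom 2.9 to 38.4). Sequences came from RefSeq (GRCm38.p6) and gene positions from GENCODE and RefSeq on the same assembly (mm10). Precursors were folded with ViennaRNA 2.7.2.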

Additional observations from a re-analysis of the deposited data

Results flagged for a closer look

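The change from day 0 to day 7 differed between D3 and B8 by limma's interaction test for the following entries, each with a sign as D3 change minus B8 change on the log2 scale. As deposited the difference was 1.47 for miR-6539, where both lines fell, -1.57 for miR-2137 and 3.12 for miR-1983. That for miR-1983 was 0.64 on the relative scale (adjusted p = 0.16) and -0.23 with equal column totals, beside a median of 2.64 over all tested miRNAs as deposited, and that for miR-6539 turned to -1.01 on the relative scale (adjusted p = 0.051). On the relative scale the difference was -3.03 for miR-6240, -4.05 for miR-6236 and -4.08 for miR-2137. Of these, miR-2137 passed the test on both scales (adjusted p = 0.0073 and 2e-06). The value of miR-6236 rests on 0, 2 and 0 reads in B8 day 0, and its size depends on the pseudocount.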

How the results depend on the processing

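Depth limits miR-6236 most, with at most 18 reads a library. Deposited column totals differ 17.7-fold, and how the factors behind them were made is not given in the sources used here. Counts of entries called moved by over 1.5 times as follows. B8 day 7 against day 0 (2 as deposited) gave 1 with the filter at 50 per 1000000, which drops miR-6236, 4 with median-of-ratios factors, 5 with totals made equal over rows other than miR-10a and miR-10b and 4 with edgeR and TMM. D3 day 7 against day 0 (3) gave 5 with edgeR and TMM. D3 day 21 against day 7 (3) gave 5 with a pseudocount of 10 per 1000000 and 5 with edgeR on the deposited scale. D3 against B8 at day 0 (5) gave 3 with equal column totals. Leaving out 1 library gave 1 to 3 calls for D3 against B8 at day 7 (2), with 1 without B8 day 7 replicate 2 or D3 day 7 replicate 2. The cause of these moves was otherwise not tested. Median-of-ratios factors aside, the share of all miRNAs called under these settings is not given here. Whether the entries moved apart from the whole table therefore cannot be read from these counts.

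Signs reversed in 38 values, all under another scaling. With equal column totals, D3 day 7 against day 0 gave -3.51 for miR-6240, -2.41 for miR-6236 and -0.01 for miR-1983. Day 21 against day 0 gave -0.85 for miR-6240 and -0.68 for miR-1983, and day 21 against day 7 gave 0.35 for miR-6236. D3 against B8 gave 0.11 for miR-1983 at day 0, and -1.71, -0.96, -1.08 and -0.12 for miR-6240, miR-6236, miR-2137 and miR-1983 at day 7. The interaction gave -1.84 for miR-6539 and -0.23 for miR-1983. With median-of-ratios factors, equal totals of the rows other than miR-10a and miR-10b, and edgeR with TMM, in this order, D3 day 7 against day 0 gave -2.12, -2.01 and -2.36 for miR-6240 and -1.10, -1.01 and -1.37 for miR-6236. Day 21 against day 0 gave -0.49, -0.64 and -0.56 for miR-6240 and -0.32, -0.48 and -0.39 for miR-1983. D3 against B8 at day 7 gave -1.03, -1.03 and -1.17 for miR-6240, -0.36, -0.36 and -0.40 for miR-6236 and -0.40, -0.40 and -0.46 for miR-2137. The interaction of miR-6539 gave -1.01, -1.19 and -1.07. At day 0, miR-1983 gave 0.10 with totals made equal over rows other than miR-10a and miR-10b. Leaving out 1 library reversed 4 values: the ranges were -0.10 to 0.45 for miR-6240 in D3 day 7 against day 0, -0.69 to 0.09 for miR-6236 in D3 day 21 against day 0 and -0.02 to 0.88 for miR-6240 in D3 against B8 at day 7. Leaving out libraries on the relative scale was added after seeing the data.

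Of the other values of changes, libraries left out aside, 326 kept their direction and side of the threshold, 34 newly passed it and 15 no longer did. Same-numbered replicates did not deviate together (26 pairs, r from -0.13 to 0.13), so the numbers were not taken as pairs. With the replicate block 2, 3, 4, 3, 5, 2 and 4 entries were called in the 7 comparisons in the order given in the text, and miR-6236 newly passed the interaction test (-2.05). The share of all miRNAs called with the block is not given here either.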
